A study of Homo sapiens with 20 samples.

Results

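Peptide against water was compared in HCT116 cells that had all received Nutlin-3a, and the 10 libraries of this comparison were taken from the 20 of the series by their treatment labels. HCT116 is a human colorectal carcinoma line labelled wild type. Water alone or a peptide at 10 µM was electroporated into the cells, and the cells of all 10 libraries then spent 3 hours with 10 µM Nutlin-3a in a final 0.1% DMSO. Cells that had received peptide also had 200 nM of it in their medium. Experiment 1 held 2 libraries with water and 2 with peptide, and experiment 2 held 3 of each. RNA came from isolated nuclei, was depleted of ribosomal RNA and was made into directional libraries. Libraries with the same number in an experiment form a pair, which gives 5 pairs. Levels of the 10 libraries without Nutlin-3a (water or peptide in 0.1% DMSO) are given as background. Those libraries also enter the scaling, the filter and the fits, so the spread behind the p-values is pooled over all 20 libraries. The labels do not say whether replicates were separate cultures, so p-values measure only the spread between libraries.

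The transcription factor p53 is held at low levels by MDM2, which marks it for degradation, and Nutlin-3a occupies the pocket of MDM2 that binds p53. Stabilised p53 binds response elements made of 2 adjoining copies of a short motif and recruits Mediator, the large complex that passes signals from transcription factors to RNA polymerase II. The targets of p53 include cell cycle inhibitors, death receptors and BH3 proteins, DNA repair genes, metabolic genes and its own inhibitors MDM2 and PPM1D. The peptide was designed to keep p53 from contacting Mediator, so the comparison asks how far the Nutlin-3a response of p53 genes survives when that contact is competed. Nuclear RNA is rich in unspliced transcripts and reports recent transcription more directly than RNA of whole cells.

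Several p53 genes have a response element within the promoter window of the RefSeq table on GRCh38.p14, which reaches from 250 bases before to 50 after the start. The search used the 20 base p53 element on both strands with at most 3 mismatches and none in the C and G of either core. Capitals mark the 4 core bases of each copy of the motif, and the 6 elements are shown because 4 of these genes fell with peptide in experiment 1 and the other two did not pass the test.
DDB2: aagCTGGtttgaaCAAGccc
FAS: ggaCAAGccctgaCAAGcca
MDM2: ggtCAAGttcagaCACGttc
FDXR: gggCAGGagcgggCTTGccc
SESN1: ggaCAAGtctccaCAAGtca
PMAIP1: gagCGTGtccgggCAGGtcg
The element of the damage recognition gene DDB2 lies on the plus strand at chr11:47214969-47214988, begins 5 bases before the start and has 1 mismatch. That of FAS, the death receptor gene, lies at chr10:88991309-88991328 on the plus strand with 2 mismatches. That of MDM2 lies at chr12:68808923-68808942 on the plus strand with 2 mismatches. The elements of FDXR (ferredoxin reductase, chr17:74872996-74873015, minus strand), SESN1 (a stress-induced regulator of mTORC1, chr6:109009018-109009037, minus strand) and PMAIP1 (the BH3 protein NOXA, chr18:59899811-59899830, plus strand) have 3 mismatches each. The FDXR row whose span is given below starts downstream of the FDXR element. That element lies at another RefSeq start of the gene. A match is a description of these letters and not evidence of binding.

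In the 10 libraries, gene rows held between 18787172 and 63896604 reads. Epithelial marker genes summed to 1979 to 3605 reads per 1000000 (RPM) with water and 2097 to 3971 with peptide, leukocyte markers to 0.266 to 5.83 and 0.150 to 6.16, fibroblast markers to 12.8 to 92.3 and 10.1 to 76.6, and endothelial markers to 0.745 to 2.91 and 0.503 to 3.23. The collagen gene COL1A2 was at 0 in all 10 libraries. One library of experiment 1, Nutlin with water replicate 2, stood apart from the others. Its Pearson correlation across genes with replicate 1 was 0.955, against 0.992 between the peptide replicates, and 43.5% of its reads fell in 10 rows. Many results of experiment 1 are therefore given with and without it. Leaving out a library of experiment 1 leaves 1 in its group, whose spread is then not measured. Adjusted p-values and counts of such fits rest on the spread of the other groups and are descriptive. Levels below are RPM divided by a library scaling factor (scaled RPM), and changes are log2 differences of scaled RPM plus 0.5.

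In experiment 1, CDKN1A, BTG2, MDM2, BBC3, DDB2 and SESN2 fell with peptide, and in experiment 2 no p53 gene passed the test in the fit without library weights. Of 159 genes in 6 lists of p53 targets, 149 averaged 0.5 RPM or more across all 20 libraries and were tested. By limma with Benjamini-Hochberg adjustment over 15958 genes, 52 of the 149 fell in experiment 1 and 0 rose, where 2.95% of all genes tested fell and 3.68% rose. Their median log2 change was -0.35, beside 0.09 for all genes tested, and 116 of 149 were below 0, against 39.6% of all genes tested. In experiment 2, 0 of 149 passed, where 0% of all genes tested passed, and the median was -0.03. At an unadjusted p under 0.05 by limma, 6 of the 149 were lower, as were 246 of the 15958 genes tested. Below 0 were 87 of 149, against 48.7% of all genes tested. With library weights 2 of the 149 fell in experiment 2, the receptor kinase gene EPHA2 (-0.47) among them, and with one library left out of the weighted fit none passed, as given below. A lower level in bulk nuclear RNA can mean fewer cells that carry the transcript or less of it per cell, which cannot be told apart.

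**Figure D1:**
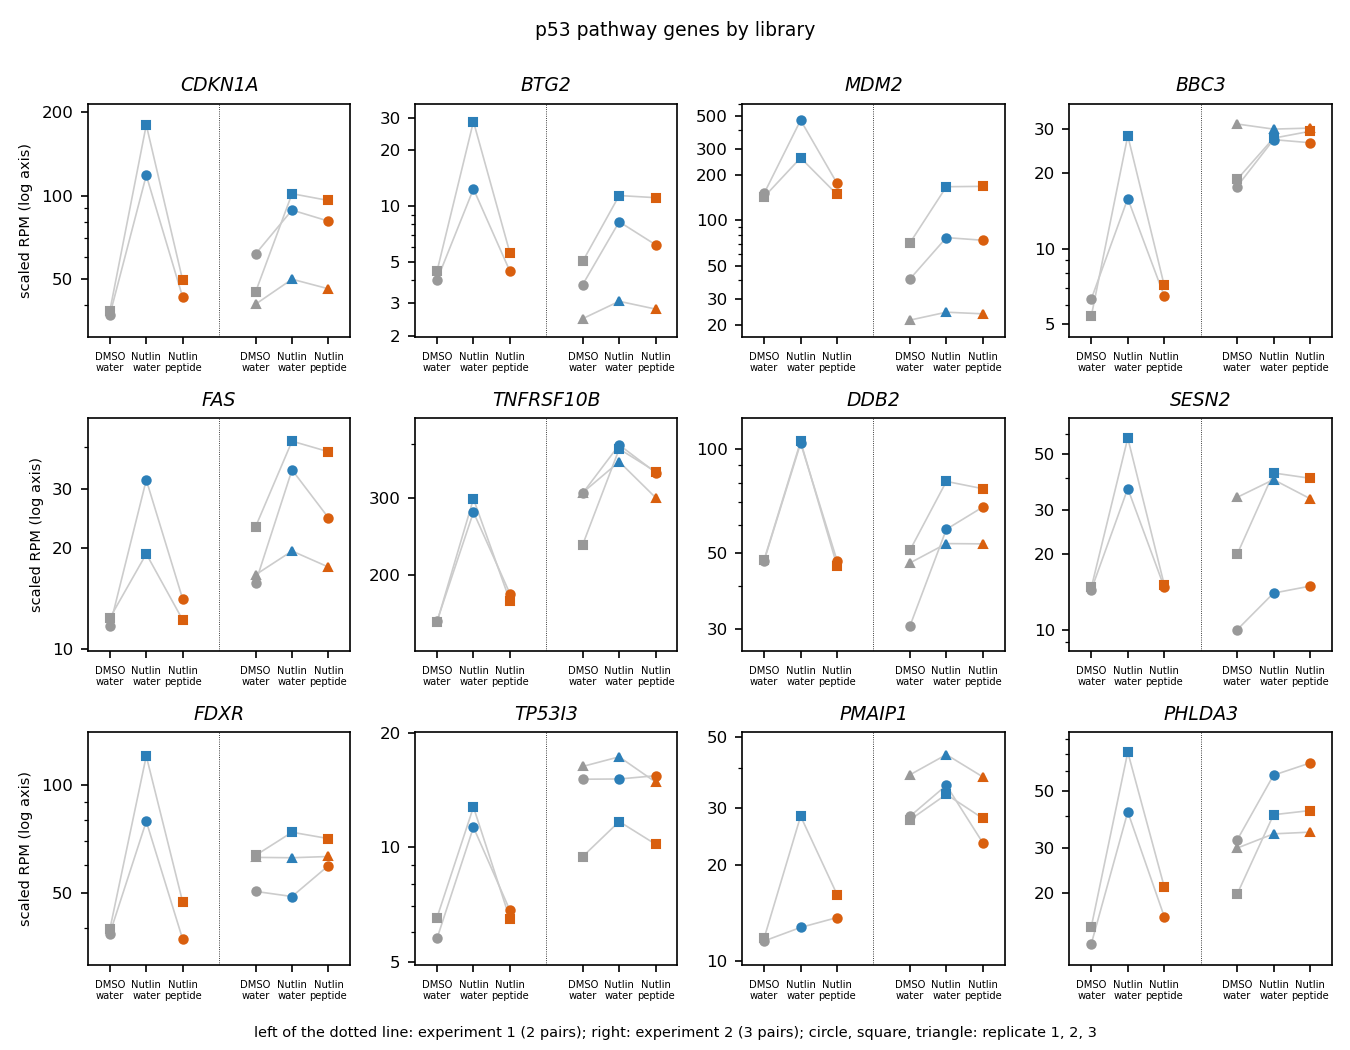
Scaled RPM (log axis) of 12 p53 pathway genes in each library with DMSO and water (grey), Nutlin-3a and water (blue) and Nutlin-3a and peptide (orange), with lines joining libraries of the same number; experiment 1 is left and experiment 2 right of the dotted line. In experiment 1 CDKN1A stood at 118 and 180 with water and at 42.8 and 49.3 with peptide, while in experiment 2 the orange points stay close to the blue ones.

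The count of falls in experiment 1 depended on the model and on single libraries. It was 0 without the replicate block, with library weights, or in a fit of experiment 1 alone, where 0, 0 and 1 of all genes tested passed. With 1 library left out the count moved widely, as given below, and the median of the 149 genes lay between -0.40 and -0.30. The median was -0.30 without the library that stood apart.

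Among the cell cycle arrest genes, 6 of 13 fell in experiment 1 (BTG2, CDKN1A, GADD45A, PLK3, GAS6 and PLXNB2) and the median was -0.61. Only CDKN1A and BTG2, 2 of these, fell without the library that stood apart, where the median was -0.30. CDKN1A, the gene of p21, an inhibitor of cyclin-dependent kinases, was at 118 and 180 scaled RPM with water and at 42.8 and 49.3 with peptide. Its row spans chromosome 6 from 36678710 to 36685800 on the plus strand of hg38, introns included. The groups do not overlap, as for 11.4% of all genes tested in this direction, and both peptide libraries lay near the level with DMSO and water, 37.6 ± 0.898 scaled RPM (SD, n = 2). The change was -1.66 ± 0.20 (SE, adjusted p = 0.00105 by limma), and -1.42 without the library that stood apart (adjusted p = 0.00703). In experiment 2 CDKN1A was at 88.6, 102 and 49.8 with water and at 80.8, 96.0 and 45.9 with peptide, against 48.9 ± 11.1 (SD, n = 3) with DMSO and water. Each peptide library was lower than its partner, and the groups overlap.

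BTG2, an antiproliferative gene on chromosome 1 (203305536 to 203307438), was at 12.4 and 28.6 scaled RPM with water and 4.46 and 5.61 with peptide in experiment 1, and fell by 1.82 ± 0.26 (adjusted p = 0.00213 by limma). In experiment 2 BTG2 was at 8.24, 11.4 and 3.07 with water and 6.19, 11.1 and 2.78 with peptide. The growth arrest gene GADD45A fell by 1.06 ± 0.21 in experiment 1 (adjusted p = 0.0182 by limma), and had -0.83 and adjusted p = 0.155 without the library that stood apart. SFN, which encodes 14-3-3 sigma, had -0.22 in experiment 1 and -0.05 in experiment 2 and did not pass. The polo-like kinase gene PLK3 fell by 0.95 in experiment 1 and had 0.03 in experiment 2, while PLK2 had -0.09 and -0.16 and did not pass.

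Of the 11 feedback genes, 3 fell in experiment 1 (MDM2, PPM1D and SUSD6), and the list median was 0.13, with -0.13 and 0.38 in the pairs. The same 3 fell without the library that stood apart, where the median was -0.26. MDM2 was at 469 and 262 scaled RPM with water and at 177 and 149 with peptide in experiment 1, so the groups do not overlap. Its level with DMSO and water was 148 ± 5.71 (SD, n = 2). MDM2 fell by 1.11 ± 0.21 (adjusted p = 0.0149 by limma), and fell by 1.47 without the library that stood apart (adjusted p = 0.00623). In experiment 2 MDM2 was at 76.9, 168 and 24.4 with water and at 73.8, 169 and 23.8 with peptide, nearly the same level within each pair. PPM1D, a phosphatase that acts on p53, fell by 0.68 ± 0.14 in experiment 1 and had 0.07 in experiment 2.

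Of 23 apoptosis genes, 11 fell in experiment 1, and the list median was -0.35, or 6 and -0.41 without the library that stood apart. BBC3, which encodes the BH3 protein PUMA and whose span holds MIR3190 and MIR3191, was at 15.8 and 28.2 scaled RPM with water and at 6.49 and 7.16 with peptide. It fell by 1.56 ± 0.20 (adjusted p = 0.0011 by limma), and its level with DMSO and water was 5.87 ± 0.643 (SD, n = 2). In experiment 2 BBC3 stood between 27.2 and 29.9 with water and between 26.4 and 30.2 with peptide. PHLDA3, an AKT inhibitor, fell by 1.53 ± 0.20 in experiment 1 and had 0.08 in experiment 2. The pore-forming BCL2 family gene BAX fell by 0.89 ± 0.15 and had 0.03. TP53I3, an oxidoreductase gene overlapped by FAM228B, fell by 0.81 ± 0.13 and had -0.13.

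The death receptor genes FAS and TNFRSF10B were lower with peptide in all 5 pairs. FAS, overlapped by FAS-AS1, was at 31.9 and 19.2 scaled RPM with water and at 14.1 and 12.2 with peptide in experiment 1, and fell by 0.89 ± 0.20 (adjusted p = 0.0276 by limma). In experiment 2 FAS was at 34.1, 41.5 and 19.6 with water and at 24.6, 38.6 and 17.5 with peptide, lower in every pair at -0.24 ± 0.16. TNFRSF10B, the TRAIL receptor gene overlapped by LOC286059, was at 278 and 299 with water and at 181 and 174 with peptide in experiment 1, and fell by 0.70 ± 0.13 (adjusted p = 0.0131 by limma). Without the library that stood apart it had -0.66 and adjusted p = 0.0648. In experiment 2 TNFRSF10B was at 398, 389 and 364 with water and at 343, 345 and 301 with peptide, which do not overlap (0.658% of all genes tested were lower and 0.608% higher in this way), and the change of -0.22 ± 0.11 did not pass (unadjusted p = 0.0579). PMAIP1 was at 12.7 and 28.3 with water and 13.7 and 16.1 with peptide in experiment 1, at -0.35 and -0.35 in the experiments, and did not pass.

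Of 11 repair genes, 3 fell in experiment 1, and the list median was -0.02, with -0.40 and 0.33 in the pairs. The same 3 fell without the library that stood apart, where the median was -0.49. DDB2 was at 104 and 105 scaled RPM with water and at 47.4 and 45.7 with peptide, with little spread between replicates, and at 47.5 ± 0.200 (SD, n = 2) with DMSO and water. It fell by 1.16 ± 0.16 (adjusted p = 0.00134 by limma), and by 1.15 without the library that stood apart. The DDB2 row spans chromosome 11 from 47214942 to 47238849. In experiment 2 DDB2 was at 58.4, 80.6 and 53.1 with water and at 67.9, 76.8 and 52.99 with peptide, so no direction is seen. XPC, a sensor of DNA lesions, fell by 0.58 ± 0.12 and POLH, a lesion bypass polymerase, by 0.91 ± 0.16 in experiment 1, and they had -0.07 and -0.01 in experiment 2. RRM2B, a ribonucleotide reductase subunit gene of the repair and metabolic response, had 0.19 and -0.13 and did not pass.

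Metabolic p53 genes gave 9 falls of 26 and a median of -0.53 in experiment 1, and the fit lacking the library that stood apart gave 8 and -0.32. SESN2, like SESN1 a regulator of mTORC1, was at 36.4 and 57.6 scaled RPM with water and at 14.8 and 15.1 with peptide. It fell by 1.58 ± 0.21 (adjusted p = 0.0012 by limma) and had -0.08 in experiment 2, where the pairs had 14.03 and 14.9, 41.9 and 39.9, and 39.5 and 33.2. SESN1 had -0.78 ± 0.26 (adjusted p = 0.067) and passed only without the library that stood apart (-1.30, adjusted p = 0.0302). FDXR fell by 1.21 ± 0.15 in experiment 1 (adjusted p = 0.00105 by limma) and had 0.08 in experiment 2.

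GRIN2C, a glutamate receptor subunit gene outside the p53 lists, had the smallest p-value of the comparison in experiment 1. It lies on the minus strand of chromosome 17 at 74842023 to 74859884 on hg38, next to FDXR at 74862497 to 74868565 on the same strand, and reads that run past the end of FDXR could not be told apart from GRIN2C reads here. GRIN2C was at 22.3 and 29.3 scaled RPM with water and at 4.14 and 3.79 with peptide, below the 7.24 ± 0.387 (SD, n = 2) with DMSO and water. It fell by 2.55 ± 0.21 (adjusted p = 2.53e-05 by limma), and in experiment 2 had -0.01 ± 0.18. It was also the 1 gene that passed in a fit of experiment 1 alone (adjusted p = 0.0302).

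The list of other p53 targets, with 65 genes tested, gave 20 falls and a median of -0.37 in experiment 1, and the fit lacking the library that stood apart gave 10 and -0.29. SYTL1, a vesicle trafficking gene, fell by 1.38 ± 0.15, and the secreted stress cytokine gene GDF15, whose span holds MIR3189, by 1.11 ± 0.27. Without the library that stood apart GDF15 had -0.56 and adjusted p = 0.345. The zinc finger gene ZMAT3 had -0.12 in both experiments, CCNG1, a cyclin gene, -0.18 in both, and TP53INP1, a stress protein gene, -0.14 and -0.08, and none of these 3 passed. Over the 5 pairs, 28 of the 149 p53 genes were lower in each pair and 0 were higher in each, where 2.54% and 4.76% of all genes tested were. The 28 include CDKN1A, BTG2, FAS, TNFRSF10B, TNFRSF10D, EPHA2, DRAM1, XPC and AEN.

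**Figure D2:**
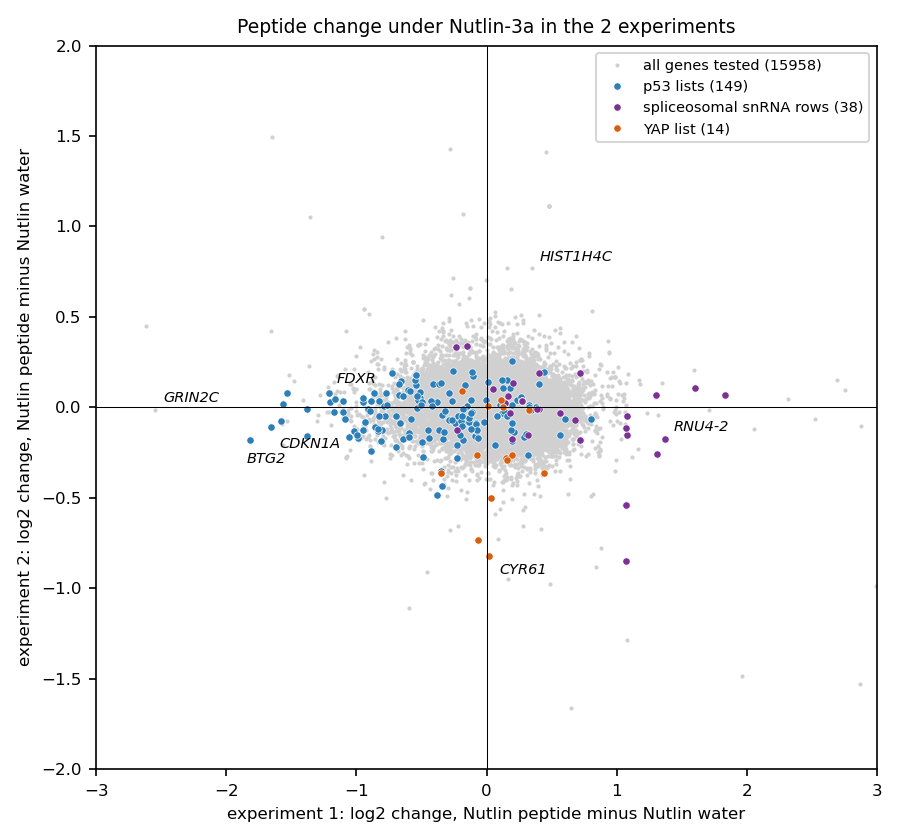
Log2 change with peptide under Nutlin-3a in experiment 1 (horizontal) and experiment 2 (vertical) for 15958 genes, with the p53 lists, the spliceosomal snRNA rows and the YAP list coloured; 13 genes lie outside the axes. The p53 genes spread to the left and the snRNA rows to the right along the horizontal axis, with medians of -0.03 and -0.03 in experiment 2, while CYR61 lies low on the vertical axis.

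Over all genes, peptide against water gave 1058 calls in experiment 1, 6.63% of 15958, of which 587 rose and 471 fell. The share of higher calls was 55.5%, but 38.9% with median of ratios scaling and 11.5% without scaling beyond RPM (27 higher, 208 lower). Without the library that stood apart 66 passed (0.414%), 10 higher (0.0627%) and 56 lower (0.351%), and 32 of the 56 were in the p53 lists. That fit holds 1 library of Nutlin with water in experiment 1, so its counts do not take in the spread of that group. With all libraries, 11.04% of the 471 genes that fell were in the p53 lists, against 0.934% of the genes tested. Experiment 2 gave 0 calls by limma (0%, with 195 higher and 246 lower at an unadjusted p under 0.05) and 0 by limma-voom, and both experiments together gave 0 (771 higher and 544 lower at an unadjusted p under 0.05) and 3 by limma-voom (RNU4-2, GRAPL and ASTN2, named after their values were seen).

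The experiments share no library, so the genes that fell in experiment 1 can be read in experiment 2. Of the 471 genes, 251 (53.3%) were below 0 in experiment 2, against 48.7% of all genes tested, and of the 587 that rose 294 were above 0. Of the 52 p53 genes that fell, 32 were below 0 in experiment 2 and 20 above, with a median of -0.04. Across all genes tested, which are not independent replicates and share the same libraries, the changes in the experiments had a Pearson correlation of -0.104, and across the 149 p53 genes one of 0.0351. The median of these 52 genes was -0.86 in experiment 1, which chose them.

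The change differed between the experiments for 52 genes by the interaction term of limma (0.326% of the genes tested), 37 lower (0.232%) and 15 higher (0.0940%) in experiment 1. Of the 37, 14 were in the p53 lists. CDKN1A differed by -1.55 ± 0.26 (adjusted p = 0.0224 by limma), BBC3 by -1.59 ± 0.26 and DDB2 by -1.21 ± 0.20, while MDM2 (-1.08, adjusted p = 0.101), FAS (-0.65, adjusted p = 0.168) and TNFRSF10B (-0.48, adjusted p = 0.147) did not pass. A difference between the experiments was thus called for some p53 genes and not for others. The interaction count was 25 without the library that stood apart (0.157%, with 0.113% lower and 0.0439% higher), 1 without replicate 1 of either group in experiment 2 (GRIN2C in both), and 2 without replicate 2 of Nutlin with peptide in experiment 1 (GRIN2C and MIR548V, the latter named after its values were seen).

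No p53 gene was called for the peptide without Nutlin-3a. The p53 list median for peptide against water in DMSO was 0.07 in experiment 1 and 0.07 in experiment 2, with 0 of 149 called, where 0.00627% and 0% of all genes tested were called. The 1 called gene was the small nucleolar RNA gene SNORD24 (-3.84 in experiment 1, named after its values were seen). CDKN1A was at 42.1 ± 1.58 scaled RPM (SD, n = 2) with DMSO and peptide in experiment 1, beside 37.6 ± 0.898 with DMSO and water. The peptide change under Nutlin-3a minus that without it gave 0 calls over both experiments (0%, with 292 genes at an unadjusted p under 0.05) and 4 by limma-voom, RNU4-1, RNU4-2, RNU5E-1 and GRAPL, named after their values were seen. Small unadjusted p-values on the lower side, none of them called, belonged to FAS (-0.72), the AMPK subunit gene PRKAB1 (-0.50), TNFRSF10B (-0.49) and PTPRE (-0.43).

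In experiment 1, where this contrast was added after the data were seen, 17 genes passed (0.107%), 13 lower (0.0815%) and 4 higher (0.0251%). Of the 13, 11 were in the p53 lists: CDKN1A, BTG2, BBC3, PHLDA3, DDB2, SESN2, FDXR, NADSYN1, CYFIP2, DGKA and SYTL1. CDKN1A had -1.82 ± 0.28 (adjusted p = 0.0168 by limma). The other two were GRIN2C (-2.38) and the sulfatase gene SULF2 (-1.26), and the 4 higher were RNU4-1, RNU4-2, SNORD24 and GRAPL. The contrast without the library that stood apart gave 19 calls (0.119%), 16 lower (0.100%) and 3 higher (0.0188%). Of these 16, 13 were in the p53 lists, with 9 of the 11 above kept and SESN2 and BTG2 lost, and CDKN1A had -1.60 (adjusted p = 0.0276 by limma). When Nutlin with water of experiment 1 lost replicate 1 in its place, 7163 passed, and 1 library left out elsewhere gave 2 to 25. Experiment 2 gave 0 (0%), with a p53 list median of -0.11.

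**Figure D3:**
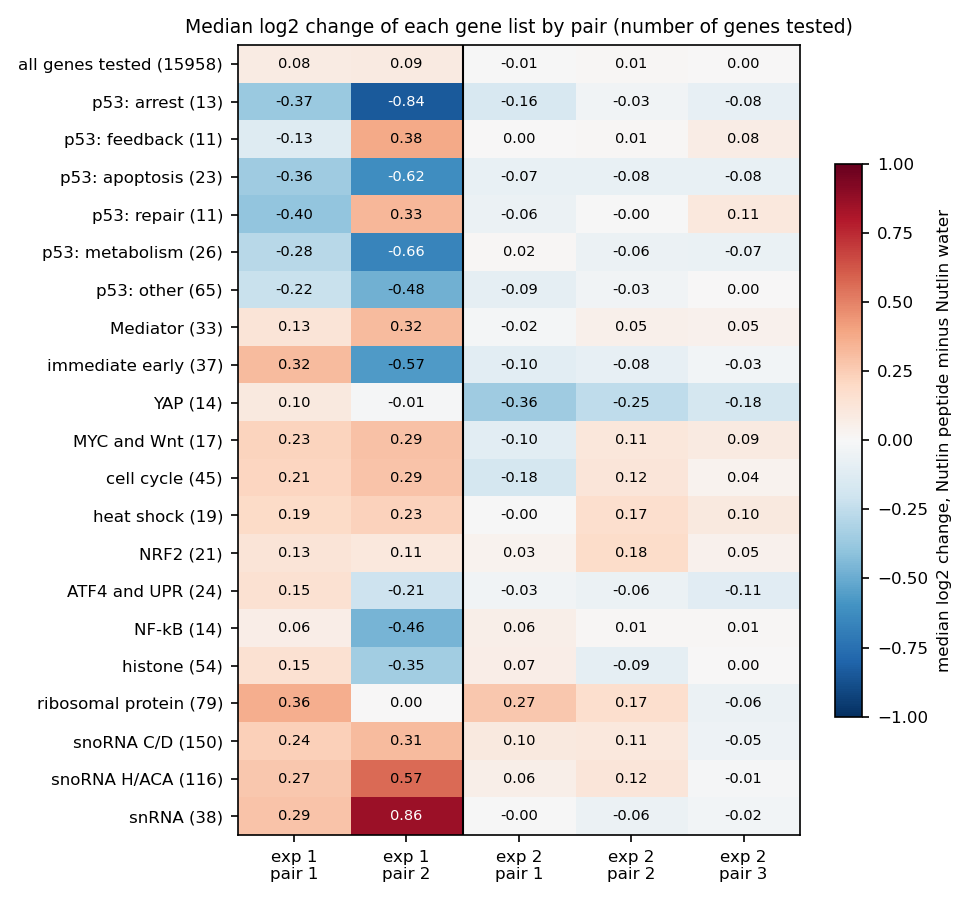
Median log2 change of each gene list (rows, number of genes tested in brackets) in the 5 pairs (columns), from blue (lower with peptide) to red (higher). The p53 arrest, apoptosis, metabolism and other lists are below 0 in both pairs of experiment 1, at -0.84 for arrest in pair 2, while the p53 feedback, p53 repair, immediate early, NF-kB, histone and ATF4 lists are among those with opposite signs in those pairs.

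Rows of small noncoding RNAs were among the calls on the higher side of experiment 1. Spliceosomal snRNAs, the RNA cores of the splicing machinery, had 17 of 38 rows called higher and a median of 0.62 (3.68% of all genes tested rose). RNU4-2, a U4 gene, was at 54.9 and 41.7 scaled RPM with water and at 106 and 147 with peptide, a rise of 1.37 ± 0.22 (adjusted p = 0.00478 by limma). Its level with DMSO was 57.0 ± 15.99 (SD, n = 2) with water and 34.2 ± 14.6 with peptide, where the peptide libraries lie below the water libraries. RNU1-1, a U1 gene, was at 803 and 880 with water and at 1350 and 2330 with peptide, but 7 U1 rows (RNU1-1, RNU1-2, RNU1-3, RNU1-4, RNU1-27P, RNU1-28P and RNVU1-18) share coordinates and hold the same values, so they stand for 1 measurement. Without the library that stood apart RNU4-2 had 0.84 and adjusted p = 0.0708, the list median was 0.19, and no snRNA row was among the 10 genes called higher.

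These rows were far lower in experiment 2. RNU4-2 was between 0.0579 and 0.328 scaled RPM with water and between 0.0355 and 0.163 with peptide, from 2 to 7 reads a library. RNU1-1 was between 0.598 and 2.38 with water and between 0.549 and 1.63 with peptide, from 16 to 58 reads a library. The interaction term called 10 of the 38 snRNA rows higher in experiment 1, against 0.0940% of all genes tested, and 7 of the 10 were the U1 rows of shared coordinates.

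Small nucleolar RNAs guide the modification of ribosomal and spliceosomal RNA. In experiment 1, where 3.68% of all genes tested rose, H/ACA rows had 28 of 116 called higher (median 0.40) and C/D rows 24 of 150 (median 0.32), with medians of 0.06 and 0.04 in experiment 2. Counts without the library that stood apart were lower: 0 H/ACA rows (median 0.29) and 2 C/D rows (median 0.21, SNORD10 and SNORD24, named after their values were seen) rose. Most lie inside other genes, as SNORD44 lies in the span of GAS5, and reads of the host and the guide RNA may be shared. Of the host and other nuclear long noncoding RNAs, 4 of 15 rose (GAS5, SNHG1, SNHG5 and SNHG16), at 0.52 ± 0.14 for GAS5 in experiment 1 and -0.01 in experiment 2, and 0 rose without the library that stood apart. NEAT1, the paraspeckle scaffold and a p53 target, had -0.57 ± 0.18 (adjusted p = 0.0562) in experiment 1, and -0.86 without the library that stood apart (adjusted p = 0.0446).

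Ribosomal protein genes lay mostly above 0 in both experiments. In experiment 1, 12 of 79 rose (3.68% of all genes tested did) and the median was 0.18, while without the library that stood apart 0 rose and the median was 0.36. RPL36AL, at 1087 scaled RPM in 1 library of Nutlin with peptide as given below, is among the 12. In experiment 2, 0 passed, the median was 0.13 and 1 of 79 was below 0, against 48.7% of all genes tested. RPL9 was at 193 and 143 scaled RPM with water and at 269 and 231 with peptide in experiment 1, a rise of 0.58 ± 0.13 (adjusted p = 0.0284 by limma), and had 0.38 and adjusted p = 0.256 without the library that stood apart. In experiment 2 RPL9 was higher in each of the 3 pairs, at 0.10 ± 0.11. The list medians by pair were 0.36, 0.00, 0.27, 0.17 and -0.06, so pair 2 of experiment 1 and pair 3 of experiment 2 showed little or none of it. Without Nutlin-3a, 79 of 79 were above 0 with peptide in experiment 1 (median 0.13) and 72 of 79 in experiment 2 (median 0.04).

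Most other lists had few calls in experiment 1, where 3.68% of all genes tested rose and 2.95% fell. Among the lists of this paragraph the share of rises was largest for MYC and Wnt genes. The shares of Mediator and heat shock genes lay near that of all genes tested. Of 33 Mediator genes, 1 rose, MED21 (0.68), and the median was 0.25, or 0.09 without the library that stood apart. Of 17 MYC and Wnt genes, 4 rose (NPM1, ODC1, DKC1 and LDHA), at 0.55 ± 0.14 for the nucleolar protein gene NPM1. Of 45 cell cycle genes 2 rose, CCNB1 and CCNE1, a share near that of all genes tested, and the median was 0.23. Heat shock genes gave 1 rise of 19, HSPE1, the mitochondrial chaperonin partner (0.75), which shares its span with HSPE1-MOB4, and NRF2 genes 2 of 21, PRDX1 and TXN, both peroxide detoxification genes. Of 37 immediate early genes KLF10 rose and BTG2 fell. This list had medians of 0.32 and -0.57 in the pairs of experiment 1, and without the library that stood apart the median was 0.31. In that fit 0 of the Mediator, cell cycle, heat shock and NRF2 genes passed, 1 MYC and Wnt gene rose (MYC), none of the 4 named above, and of the immediate early genes BTG2 fell and 0 rose.

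Short and long genes differed in the pair that holds the library that stood apart. This pair had a median change of 0.02 for rows under 1 kb, -0.24 for rows of 1 to 5 kb and 0.53 for rows of 500 kb or more. The other pair of experiment 1 had 0.17, 0.18 and -0.02. The pairs of experiment 2 stayed between -0.07 and 0.15 in every span class. Span thus moved with the change in pair 2 for rows of 1 kb or more, and its part in each single call was not tested.

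**Figure D4:**
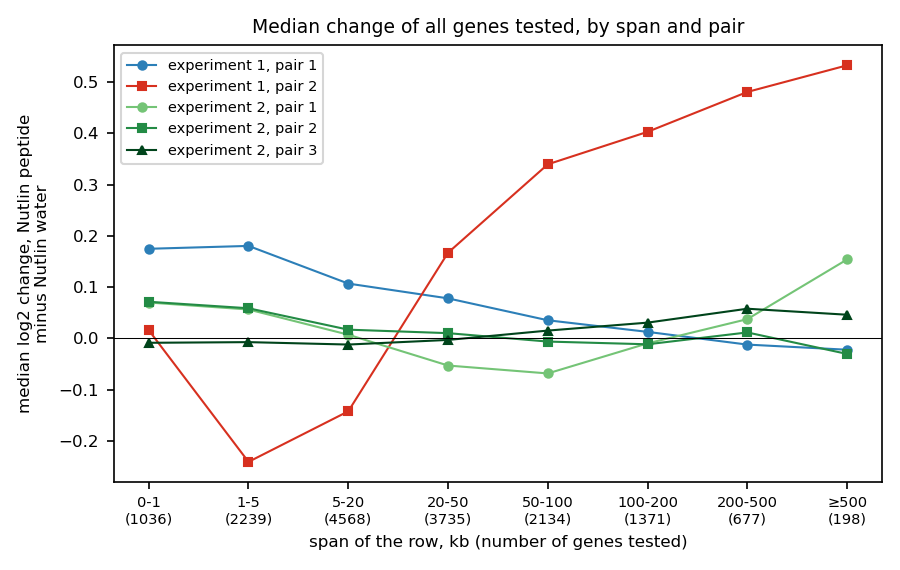
Median log2 change with peptide (vertical) of all genes tested, grouped by the span of their row in kb (horizontal, number of genes in brackets), with 1 line per pair. The line of experiment 1 pair 2, which contains the library that stood apart, begins at 0.02 in the shortest class, drops to -0.24 and then climbs to 0.53. The other lines stay between -0.07 and 0.18.

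Some of the largest changes in experiment 1 rested on 1 library or on rows whose levels varied widely between libraries. GRAPL, which overlaps LOC388436 and LOC79999, was at 0.741 and 54.4 scaled RPM with water and at 113 and 701 with peptide, beside 142 ± 77.4 (SD, n = 2) with DMSO and water. RPL36AL was at 1087 in replicate 2 of Nutlin with peptide and at 26.0 to 34.2 in the other three libraries of experiment 1, and DNAAF2 and NEMF, also on chromosome 14, had the same library highest, at 1065 and 2014. HFM1, a meiotic helicase gene, had the largest fall (-2.62) and was at 109 and 83.9 with water and 10.2 and 22.5 with peptide. In experiment 2 HFM1 ranged from 237 to 1372 over the 6 libraries with no common direction.

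In experiment 2 the 3 smallest p-values belonged to HIST1H4C, CYR61 and CTGF, the latter pair targets of YAP, the Hippo pathway coactivator that works through TEAD factors, and none passed in the fit of all 20 libraries. CYR61 (chromosome 1, 85580761 to 85583042) encodes a matricellular protein and is a classical YAP target. It was at 71.8, 45.6 and 472 scaled RPM with water and at 45.3, 24.1 and 253 with peptide, lower in each pair by 0.66, 0.91 and 0.90, and the groups overlap because the replicates differ widely in level. The change was -0.82 ± 0.15 (adjusted p = 0.421 by limma). CTGF, its paralogue (chromosome 6, 131948177 to 131951172, minus strand), was at 37.5, 7.39 and 143 with water and at 24.4, 4.74 and 71.8 with peptide, at -0.73 ± 0.16. The replication-dependent histone gene HIST1H4C was at 2.95, 8.42 and 2.05 with water and at 5.25, 12.1 and 4.89 with peptide, at 0.77 ± 0.13 (adjusted p = 0.236), and was higher in 5 of 5 pairs.

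**Figure D5:**
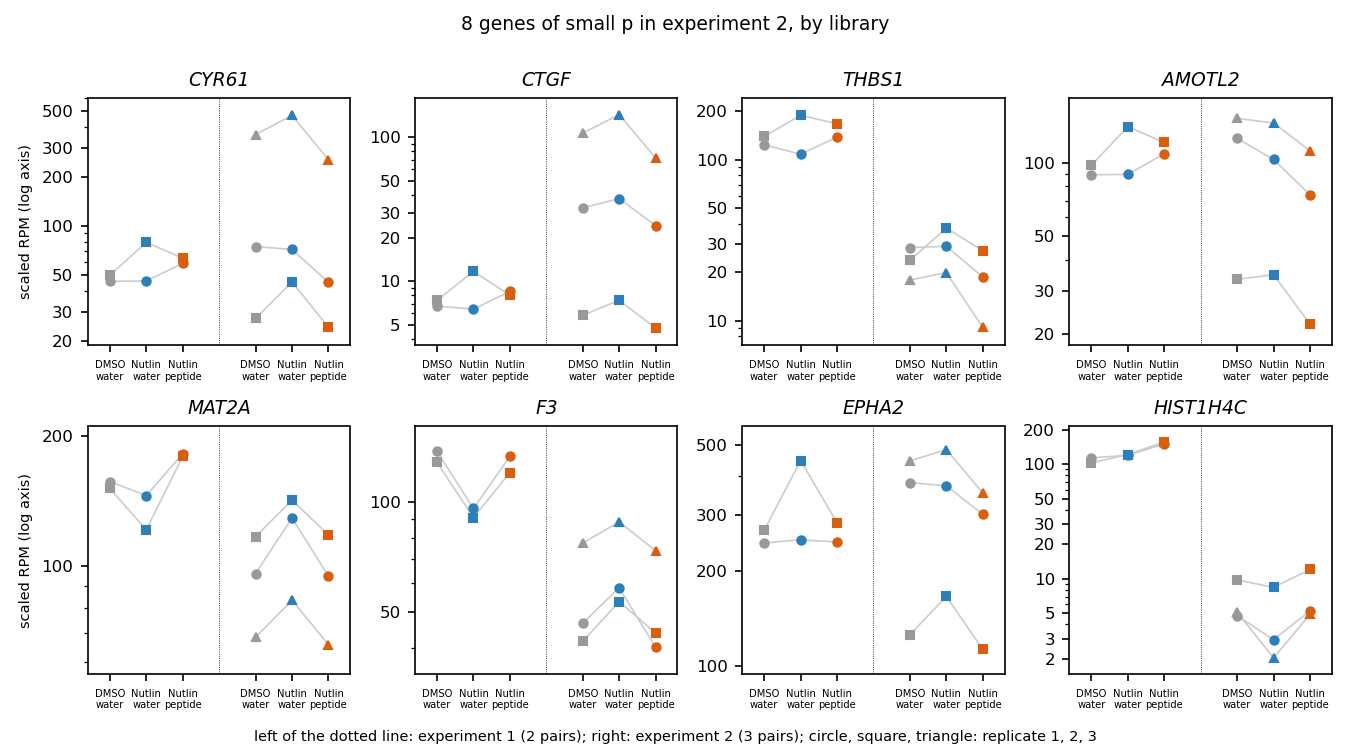
Scaled RPM (log axis) of 8 genes of small p in experiment 2, drawn as in the plot of p53 genes: grey for DMSO and water, blue for Nutlin-3a and water, orange for Nutlin-3a and peptide. CYR61 is lower with peptide than with water in each pair of experiment 2 (from 71.8 to 45.3, 45.6 to 24.1 and 472 to 253) and stands at 59.2 and 63.6 with peptide in experiment 1.

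These 3 genes passed in some other fits. Without the library that stood apart, 3 genes passed in experiment 2 (0.0188%, with 0.0125% lower and 0.00627% higher): CYR61 (-0.82) and CTGF (-0.73) fell and HIST1H4C (0.77) rose, each at adjusted p = 0.0194, and the same 3 passed without replicate 1 of that group (adjusted p = 0.0187 each). When Nutlin with water of experiment 2 lost replicate 2, HIST1H4C (0.94) and MIR663A (2.66, named after its values were seen) passed. With library weights, which gave both libraries of Nutlin with water in experiment 1 a weight of 0.0825, 33 passed (0.207%), 26 lower (0.163%) and 7 higher (0.0439%). CYR61 then had -0.86, CTGF -0.82, the angiogenesis inhibitor gene THBS1 -0.86, the angiomotin gene AMOTL2 -0.48, the receptor kinase genes AXL and EPHA2 -0.41 and -0.47, and the methionine adenosyltransferase gene MAT2A -0.34. These genes were singled out after their values were seen. Weights of the Nutlin-3a libraries of experiment 2 were uneven: replicate 3 with peptide had 6.94 and the other 5 had 0.607 to 1.30. With that library left out and the weights estimated again, a setting chosen after seeing the data, 0 genes passed in experiment 2 (0%), CYR61, CTGF and HIST1H4C included. In a fit of experiment 2 alone 0 passed.

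Of the 14 YAP list genes tested, 5 fell with library weights (0.163% of all genes tested) and 0 when replicate 3 with peptide was also left out, and 10 were below 0 in experiment 2, with a median of -0.27 and pair medians of -0.36, -0.25 and -0.18, while experiment 1 had a median of 0.07 and 1 rise, F3, the tissue factor gene. CYR61 in experiment 1 was at 46.2 and 79.4 scaled RPM with water and 59.2 and 63.6 with peptide, so the peptide libraries lie between the water libraries. The YAP list median for the peptide without Nutlin-3a in experiment 2 was -0.17. There CYR61 had -0.44, CTGF -0.52 and AMOTL2 -0.40, and the difference between the settings with and without Nutlin-3a was -0.38 for CYR61 and -0.22 for CTGF, with 0 genes called. MAT2A and F3 went opposite ways with all libraries fitted: both rose in experiment 1 (0.44 each) and had -0.35 and -0.36 in experiment 2. These differences of 0.79 and 0.80 passed the interaction term. Neither rise was called once replicate 2 of Nutlin with water was dropped from experiment 1.

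The promoter of CTGF (CCN2 in the RefSeq table) is shown because 3 copies of GGAATG, letters bound by TEAD factors, stand in it in capitals. The window is the 250 bases before the start on the minus strand of GRCh38.p14, chr6:131951373-131951622.
CTGF: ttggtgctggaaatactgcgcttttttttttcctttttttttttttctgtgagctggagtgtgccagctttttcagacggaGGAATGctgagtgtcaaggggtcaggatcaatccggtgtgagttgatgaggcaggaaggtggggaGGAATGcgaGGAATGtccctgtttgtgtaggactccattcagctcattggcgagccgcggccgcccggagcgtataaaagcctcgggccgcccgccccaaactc
The copies begin 169, 104 and 95 bases before the start. With both strands searched, 5 of 10 matched promoters of the YAP list hold these letters, and 9 of 19 (47.4%) of the genes lower in experiment 2 with library weights, against 14.96% of the tested genes with a promoter and 16.7% of all 27305 genes with a promoter. Both sets hold CTGF, AMOTL2 and AXL, so these shares are not separate observations. In experiment 2, 0 genes passed with library weights when replicate 3 of Nutlin with peptide was left out. A link between these letters and the change was not tested. The searched letters GGAATG are not part of the p53 element.

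The p53 element was in 21 of 126 matched promoters of the p53 lists (16.7%), against 1.63% of the tested genes and 1.37% of all genes with a promoter. It was in 8 of 45 (17.8%) of the p53 genes that fell in experiment 1 and in 13 of 81 (16.05%) of those that did not pass. Elements outside the window were not searched.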

How the data were processed

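Nuclear RNA of 20 HCT116 libraries was sequenced, and the submitters' processing notes name HISAT2, bedtools, limma and hg38, with no versions or strand handling. The deposited values were reads per 1000000 (RPM) divided by the authors' measure of row length (the stop minus the start over 1000), as the values themselves show: multiplied back, each column sums to 1000000 and 100% of values are whole reads within 0.001. The row of 1491 of 26485 symbols is another isoform in the other table, and 136 tested rows share coordinates with another.

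RPM were scaled by trimmed mean of M values (trims of 30% and 5%) and genes averaging 0.5 RPM or more were kept. log2(scaled RPM + 0.5) was fitted with limma 3.58.1 (R 4.3.3, Python 3.11.15) with a trend over all 20 libraries: 4 conditions for both experiments, 8 group means for each experiment, and 5 replicate blocks. Calls had a Benjamini-Hochberg adjusted p under 0.05 over 15958 genes. Same-numbered libraries deviated together (correlations of 0.286 to 0.585 in experiment 1, where 2 replicates make the deviations mirror each other, and 0.877 to 0.940 in experiment 2). The script was tested on simulated data.

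Genes named are a panel of p53 genes, in each contrast up to 10 called genes of largest change in each direction (or the 5 of smallest p where fewer than 5 were called), and up to 4 members of each list. The comparison, the lists and the panel were chosen with earlier results of these data known. Alternatives covered scaling, filter, pseudocount, limma-voom, library weights, the block, and each library left out. Some genes the rule names are not reported here.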

Additional observations from a re-analysis of the deposited data

Results flagged for a closer look

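A difference of the peptide's change between the experiments, by the interaction term of limma, marked these results. It passed for 52 genes, 37 with a lower and 15 with a higher change in experiment 1 than in experiment 2. All values here are the log2 change in experiment 1 minus that in experiment 2.

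Among p53 genes the difference was -1.55 for CDKN1A, -1.64 for BTG2, -1.59 for BBC3, -0.92 for BAX, -1.61 for PHLDA3, -1.21 for DDB2, -1.51 for SESN2 and -1.29 for FDXR. It was -0.85 for the NAD synthetase gene NADSYN1, -1.37 for SYTL1, -0.95 for CYFIP2 and -0.78 for the diacylglycerol kinase gene DGKA. Outside the p53 lists it was -2.53 for GRIN2C, -1.59 for ZFPM1, -1.46 for MAMDC4 and -1.48 for LCAT, which overlaps SLC12A4, and -1.70 for MMP23B and -1.62 for MMP23A, which overlap each other.

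On the higher side it was 0.79 for MAT2A and 0.80 for F3, which lay above 0 in experiment 1 and below 0 in experiment 2. It was 1.93 for RNVU1-7, 1.55 for RNU4-2, 1.56 for RNU4-1 and 1.62 for RNU1-1, RNU1-2, RNU1-3, RNU1-4, RNU1-27P, RNU1-28P and RNVU1-18, which share coordinates and count as 1 measurement. In experiment 2 RNU4-2 had 2 to 7 reads a library and RNU1-1 16 to 58.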

How the results depend on the processing

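Experiment 1 rests on 2 libraries a group and its calls moved most. Its 1058 calls became 0 with no replicate block, 152 in the 10 libraries with Nutlin-3a, 0 with library weights, 235 with no scaling beyond RPM, 179 with no filter and 1 in experiment 1 alone, and ranged from 16 to 8884 with 1 library left out. The 52 p53 genes lower became 0, 34, 0, 33, 31 and 0 in the same order, and 9 to 77 with 1 library left out. The 52 differences between experiments became 0 with no replicate block, 10 in the 10 libraries, 0 with library weights, 8 with no scaling, 14 with no filter, 24 with a pseudocount of 0.1 and 91 with one of 5, and 1 to 7923 with 1 library left out. The 0 calls of experiment 2 became 33 with library weights (0 when the weighted fit also lost replicate 3 of Nutlin with peptide, with a p53 median of 0.00246), and 0 to 3 with 1 library left out. Limma-voom gave 3 calls for both experiments and 4 for the change with against without Nutlin-3a. In experiment 1 that contrast gave 17, then 1 with no replicate block or with library weights, 35 by limma-voom, 6 with no scaling, 8 with no filter, 47 with a pseudocount of 5, and 2 to 7163 with 1 library left out. The p53 median of experiment 2 was -0.051 with no scaling beyond RPM and -0.086 to 0.011 with 1 library left out. The difference for PMAIP1 (0.01) ranged from -0.50 to 0.52 with 1 library left out. It reversed to -0.50 (adjusted p = 0.0149) when Nutlin with water of experiment 1 lost replicate 1. The residual SD was 0.224 in both libraries of that group. The causes were not tested. Of single gene and list values under an alternative, 3642 counted as the same, 504 lost and 32 gained a call. Another 22 moved and 1 reversed. A gene called in neither fit counted as the same even where its sign changed. A list median counted as the same where it moved by no more than the SD of its pair medians.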

Other observations

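Without the library that stood apart, MYC was 1 of the 10 genes called higher in experiment 1 (0.54), with the ubiquitin-conjugating enzyme gene UBE2C and the chromatin protein gene HMGA1. IDI1, an isoprenoid synthesis gene, was the 1 call of 22 cholesterol genes in experiment 1, and PDK1, a metabolic kinase gene, the 1 call of 12 hypoxia genes. Both were higher, where 3.68% of all genes tested rose, and neither was called without the library that stood apart. Of 54 histone genes 0 were called in experiment 1, with pair medians of 0.15 and -0.35.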
